A study of Homo sapiens with 12 samples.

Results

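The 38 genes described here encode the transcription factor MYC, the polyamine enzymes SRM and ODC1, and 35 proteins that build ribosomes in the nucleolus. They were chosen by gene symbol, for their known functions, with earlier results of these data known, so their counts are descriptions. All 38 were found among the 26475 entries of the count table and passed the filter on low counts that left 15353 genes. RNA was measured in A375 cells, an established human melanoma line with an activating BRAF mutation, in 12 libraries of poly(A) RNA, 3 for each of 4 treatments of 24 h. XL413 cells received 1 µM of XL413, which inhibits CDC7, the kinase that starts DNA replication by phosphorylating the MCM helicase. OF1 cells received 1 µM of OF1, which blocks the bromodomains of the BRPF proteins (BRPF1, BRD1 and BRPF3), which hold histone acetyltransferase complexes together. Combination cells received both agents at those doses, and DMSO cells received the solvent alone. The submitters speak of biological replicates, but the labels do not say that a group's 3 libraries were grown as separate cultures. The p-values therefore reflect only how much these libraries vary, which may be technical. All values come from 1 line at 1 dose and 1 time.

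MYC, paired with MAX, binds DNA at the E-box CACGTG and is known to raise transcription of genes for ribosome assembly, nucleotide synthesis and polyamine synthesis. ODC1 makes putrescine, the entry step of polyamine synthesis, and SRM adds an aminopropyl group to turn putrescine into spermidine. In the nucleolus RNA polymerase I transcribes ribosomal RNA, small nucleolar ribonucleoproteins (snoRNPs) direct its chemical modification, the small-subunit processome cuts and folds the 40S part, and another set of factors matures the 60S part.

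The libraries held 30499559 to 36062138 expected counts each, with a median of 33319779. Combination replicates 2 and 3 stood apart from all others on the first principal component of the 15353 genes (24.1% of the variance), at 33.4 and 31.5 against -15.1 to 6.99. Transcripts of skeletal muscle, which melanoma cells should lack, were present at a summed 170 to 362 CPM (counts scaled to a common library size) in XL413 libraries, 168 to 374 in OF1, 44.6 to 132 in the combination and 119 to 303 in DMSO, over 37 genes of which none was at 0 in every library. Over 12 fibroblast markers the sums were 306 to 357 CPM in XL413, 319 to 364 in OF1, 93.9 to 218 in the combination and 279 to 351 in DMSO. The 9 markers of T cells and macrophages summed to 47.5 to 51.7 CPM in any library, mostly CD68 at 41.1 to 45.0 CPM and LYZ at 5.04 to 6.87 CPM. CD2 was at 0, and PTPRC, CD3D, CD3E and CD3G did not exceed 0.19 CPM. CD14 did not exceed 0.84 CPM, nor CSF1R 0.925 CPM. Which cells these marker transcripts came from, and their part in the results, was not tested. A fit with the muscle level as a covariate is given where it ends a call. Of the melanocyte lineage markers, SOX10 was present at 318 to 386 CPM and MITF at 32.8 to 44.4 CPM, whereas TYR was at 0 and MLANA did not exceed 0.24 CPM in any library. In bulk RNA, fewer cells of a type and less RNA per cell cannot be told apart.

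Abundance within the set, compared per kilobase of exon because longer transcripts collect more reads, spanned a wide range in DMSO cells. NPM1, a nucleolar chaperone, was highest at 1403 CPM per kb, followed by the methyltransferase of box C/D snoRNPs, FBL, at 374, the nucleolar RNA-binding protein NCL at 336 and the H/ACA snoRNP protein NHP2 at 319. SRM stood at 138 and ODC1 at 44.4 CPM per kb. At the lower end were MYC at 8.18, the 60S factor WDR12 at 7.96 and POLR1A, the largest subunit of RNA polymerase I, at 7.62 CPM per kb. Exon length here joins all annotated exons of a gene and can exceed the length of its main transcript. The order at the lower end depends on it. By CPM alone MYC was lowest in DMSO at 24.5, while POLR1A at 97.2 and WDR12 at 64.5 were above UTP15 at 50.4. Replicates lay close together: the median coefficient of variation over the 38 genes was 2.57% in XL413, 3.17% in OF1, 4.25% in the combination and 1.60% in DMSO. The largest, 13.4%, was that of NOP10, the shortest transcript of the set, in the combination.

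Promoter windows from RefSeq (GRCh38.p14, 250 bases before to 50 bases after each gene's start) were available for 32 of the 38 genes, in 40 windows. The letters CACGTG, which read the same on both strands and were the only motif searched, were found in the windows of 18 of the 32 genes (56.2%) and in 18 of the 40 windows (45%). They were found in 7.26% of all 35116 RefSeq windows, and in at least 1 window of 12.2% of the 11174 tested genes outside the set that have one. Of the 20 copies, 17 lay within 50 bases of the start. MYC, NOP58, RRS1, RRP12, BOP1 and NOLC1 have no window in the table. The 250 bases before the start are printed for SRM, the gene with the strongest change in this set, and for NAT10 and LYAR, which had the smallest p-values after SRM under OF1, with the E-box in capitals. The SRM window is chr1:11060019-11060268 on the minus strand with its E-box beginning at -199, the NAT10 window is chr11:34105379-34105628 on the plus strand with the E-box at -15, and the LYAR window is chr4:4290022-4290271 on the minus strand with the E-box at -64.
SRM: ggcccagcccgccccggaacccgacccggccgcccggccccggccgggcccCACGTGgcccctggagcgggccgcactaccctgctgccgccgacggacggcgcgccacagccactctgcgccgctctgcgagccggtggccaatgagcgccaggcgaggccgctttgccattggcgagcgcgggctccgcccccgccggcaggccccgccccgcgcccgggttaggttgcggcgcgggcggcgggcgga
NAT10: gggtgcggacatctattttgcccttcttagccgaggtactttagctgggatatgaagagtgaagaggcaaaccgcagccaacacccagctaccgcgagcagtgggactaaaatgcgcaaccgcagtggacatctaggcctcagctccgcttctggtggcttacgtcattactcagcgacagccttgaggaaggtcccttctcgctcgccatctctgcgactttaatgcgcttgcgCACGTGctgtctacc
LYAR: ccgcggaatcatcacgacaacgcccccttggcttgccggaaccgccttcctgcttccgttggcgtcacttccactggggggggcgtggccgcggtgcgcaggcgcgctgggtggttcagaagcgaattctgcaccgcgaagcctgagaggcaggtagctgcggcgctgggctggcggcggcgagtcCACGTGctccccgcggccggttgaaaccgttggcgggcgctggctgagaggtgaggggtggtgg
A match is a description of these letters, not evidence of binding.

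Taken as a share of each library's counts, the 38 genes made up 1.13%, 1.13% and 1.15% in XL413, 1.15%, 1.16% and 1.15% in OF1, 1.13%, 1.15% and 1.12% in the combination, and 1.18%, 1.18% and 1.18% in DMSO. Every treated library thus lay under all 3 DMSO libraries. Without NPM1, the most abundant of them, the shares were 0.773%, 0.767% and 0.775% in XL413, 0.794%, 0.792% and 0.783% in OF1, 0.765%, 0.777% and 0.754% in the combination, and 0.814%, 0.815% and 0.816% in DMSO. Shares of a library are relative, so the total amount of these transcripts per cell was not measured. All 3 treatments are compared with the same DMSO libraries, and their values are given side by side for that reason.

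**Figure D1:**
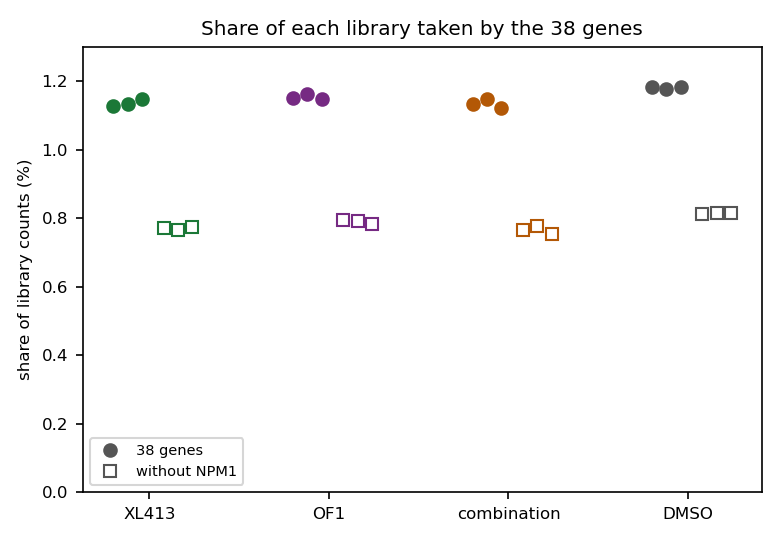
Share of each library's counts that fell on the 38 genes, and on the 37 without NPM1, in percent, with 1 point per library for XL413, OF1, the combination and DMSO. With NPM1 left out, the treated libraries lie between 0.754% and 0.794% and the DMSO libraries between 0.814% and 0.816%.

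The length of a transcript went with its deviation in single libraries, and the values are given here because they touch every comparison. Over the 38 genes, Pearson's r between log2 exon length and the deviation from the gene's mean was 0.32, -0.70 and -0.34 in XL413 replicates 1, 2 and 3, 0.72, 0.41 and -0.08 in OF1, 0.57, -0.10 and -0.70 in the combination, and -0.40, 0.22 and 0.17 in DMSO. These are correlations across genes of 1 library, which are not independent replicates, and they carry no test. The sign differs among replicates of each group, so long transcripts were relatively high in combination replicate 1 and relatively low in combination replicate 3. A fit with offsets for exon length and GC content, chosen after seeing the data, is given beside each comparison that it changes. The shares of all genes printed beside each comparison come from the fit without offsets. Except for non-additivity, the exact count over all genes under the offsets is not given, so calls under them lack that background. The offsets did not remove the relation to length in every library. With them taken out, r over the 38 genes was -0.07 in XL413 replicate 2 and combination replicate 3, and 0.06 in OF1 replicate 1. It was still 0.38 in XL413 replicate 1, -0.40 in DMSO replicate 1 and 0.21 in combination replicate 1.

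**Figure D2:**
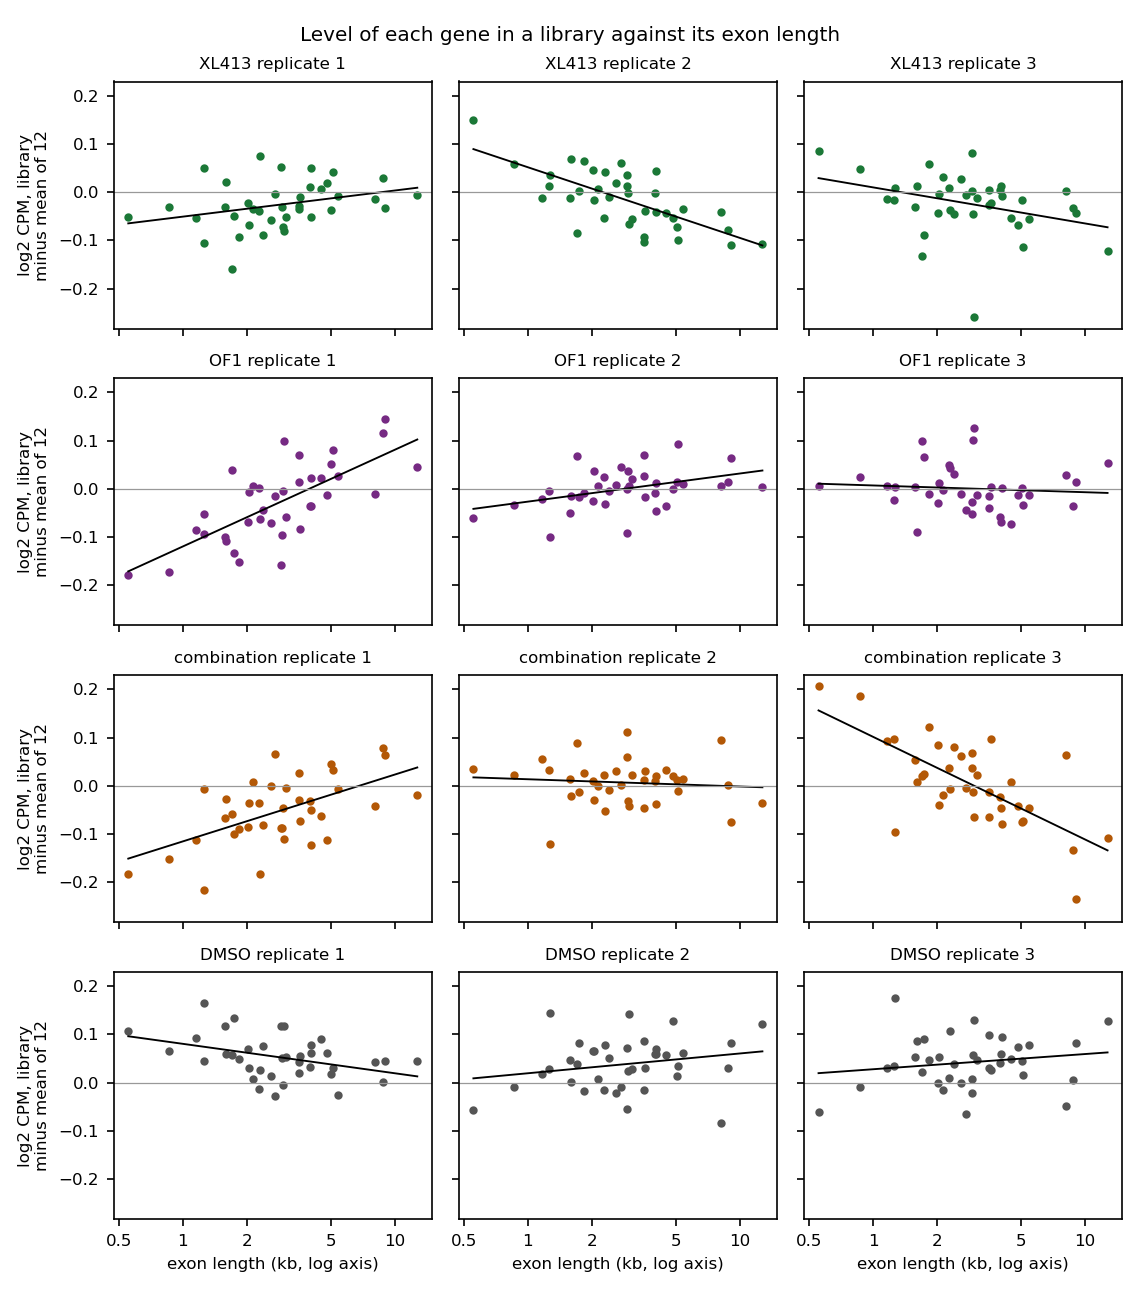
Deviation of each of the 38 genes from its mean over the 12 libraries (log2 CPM) against exon length in kb on a log axis, with a fitted line and 1 panel per library. Points of OF1 replicate 1 (r = 0.72) climb with length and those of XL413 replicate 2 and combination replicate 3 (r = -0.70 in each) descend.

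Under XL413, 4 of the 38 genes fell and none rose: MYC, NCL, RRS1 and POLR1A were lower than in DMSO, and 34 did not pass the threshold (edgeR quasi-likelihood test, Benjamini-Hochberg adjusted p under 0.05 over 15353 genes). These are 10.5% of the set, against 2.8% of all genes tested called in either direction, 1.26% higher and 1.54% lower. The median log2 change over the 38 was -0.07, with 32 below 0 and 6 above, while the median over all genes was 0.00. In 20 of the 38 all XL413 libraries were under all DMSO libraries, against 14.8% of all genes, and in 1 all were above, against 13% of all genes.

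MYC (chr8:127735434-127741434, plus strand, GENCODE 29 on GRCh38) was measured at 21.2, 21.4 and 18.7 CPM in XL413, 24.0, 22.5 and 24.5 CPM in OF1, 20.8, 21.8 and 21.4 CPM in the combination and 24.3, 24.8 and 24.5 CPM in DMSO. XL413 and combination libraries were all under the DMSO libraries, and the OF1 libraries overlapped them. MYC averaged 20.4 ± 1.49 CPM in XL413 and 24.5 ± 0.225 CPM in DMSO (SD, n = 3 each), and fell by 16.7% (log2 change -0.26 ± 0.06 SE, adjusted p = 0.0238 by edgeR). The size of the MYC change was -0.30 to -0.21 over 17 alternatives, and it did not pass without XL413 replicate 3 (-0.21, adjusted p = 0.094) or without any 1 of the DMSO replicates (adjusted p = 0.0668 to 0.0948).

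POLR1A (chr2:86020216-86106155, minus strand), the catalytic subunit of RNA polymerase I, was at 90.4, 84.2 and 83.4 CPM in XL413 and at 93.6, 98.7 and 99.2 CPM in DMSO, and it fell by 11.5% (log2 -0.18 ± 0.04 SE, adjusted p = 0.0335). RRS1 (chr8:66429028-66430733, plus strand), which helps to bring 5S RNA into the 60S precursor, was at 111, 117 and 113 CPM in XL413 and at 129, 128 and 126 CPM in DMSO, and fell by 10.8% (log2 -0.17 ± 0.04 SE, adjusted p = 0.0357). NCL (chr2:231453531-231483641, minus strand) was at 1239, 1248 and 1276 CPM in XL413 and at 1354, 1338 and 1369.9 CPM in DMSO, and fell by 7.36% (log2 -0.11 ± 0.03 SE, adjusted p = 0.0334). In each of the 3 genes the groups' libraries did not overlap. SRM, at 161, 160 and 157 CPM in XL413 against 175, 172 and 176 CPM in DMSO, did not pass (log2 -0.13 ± 0.04 SE, adjusted p = 0.0722), although its libraries were apart as well.

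ODC1, whose mRNA and protein both turn over rapidly, was at 123, 129 and 125 CPM in XL413, 129, 132 and 138 CPM in OF1, 125, 126 and 128 CPM in the combination and 129, 131 and 134 CPM in DMSO. The XL413 and OF1 libraries overlapped the DMSO range, and the combination libraries ended just under it. ODC1 did not pass in any comparison with DMSO: the log2 change was -0.07 under XL413 (95% interval -0.14 to 0.01), 0.02 under OF1 (-0.06 to 0.09) and -0.06 under the combination (-0.13 to 0.02). NPM1, the most abundant gene of the set, averaged 3654 ± 118 CPM in XL413 and 3655 ± 44.9 CPM in DMSO (SD, n = 3 each), and GNL3 (nucleostemin) 225 ± 5.29 CPM in XL413 and 224 ± 2.05 CPM in DMSO.

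None of the box C/D snoRNP proteins (3 genes), box H/ACA snoRNP proteins (4), small-subunit processome and 40S factors (11), polyamine enzymes (2) or other nucleolar regulators (3) passed under XL413. With the length and GC offsets the count under XL413 was 14, all lower, among them SRM (log2 -0.20, adjusted p = 0.00398), the 60S factor PPAN (-0.20), the snoRNP proteins DKC1 (-0.11) and GAR1 (-0.15), and MYC (-0.27). The count over all genes in that fit lay within 193 to 1394, the range over the alternatives that did not leave out 1 library. Its exact value is not given here, so the 14 cannot be set against a share of all genes. Leaving out any 1 of the 6 libraries left 0 to 2 calls, with NCL and RRS1 lost each time and POLR1A lost each time but without XL413 replicate 1; over those fits 86 to 287 of all genes were called, against 430 with every library. With the muscle covariate NCL and RRS1 did not pass under XL413 (adjusted p = 0.0756 and 0.0782), at log2 changes of -0.11 and -0.15.

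**Figure D3:**
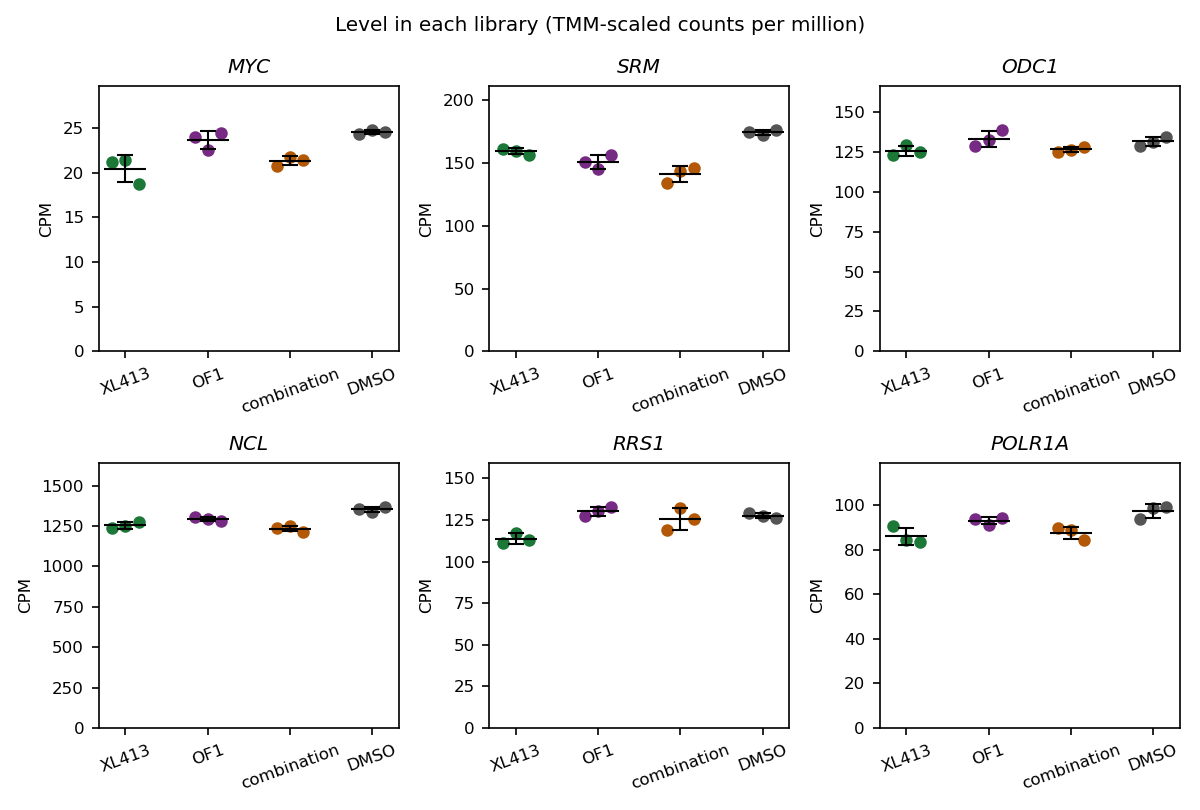
CPM of MYC, SRM, ODC1, NCL, RRS1 and POLR1A, 1 panel per gene with 1 point per library and a bar at each group mean with its SD, for XL413, OF1, the combination and DMSO from left to right. SRM averages 159, 151, 141 and 174 CPM in these groups, and every treated SRM library is under every DMSO library.

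Under OF1, SRM fell and no other gene of the set passed the threshold. That is 2.63% of the 38, against 1.15% of all genes called in either direction, 0.58% higher and 0.567% lower. SRM (chr1:11054584-11060024, minus strand) was at 150.2, 145 and 156 CPM in OF1 and at 175, 172 and 176 CPM in DMSO. All OF1 libraries were lower than all DMSO libraries, with means of 151 ± 5.47 CPM in OF1 and 174 ± 1.86 CPM in DMSO (SD, n = 3 each). SRM fell by 13.6% (log2 -0.21 ± 0.04 SE, adjusted p = 0.0138 by edgeR). MYC was at a log2 change of -0.05 under OF1, with a 95% interval of -0.17 to 0.07.

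The next smallest p-values under OF1 belonged to LYAR, a nucleolar protein of the pre-ribosome, and NAT10, which acetylates cytidines of 18S RNA. LYAR was at 169, 179.8 and 171 CPM in OF1 and at 189, 182 and 193 CPM in DMSO (log2 -0.12 ± 0.03 SE, adjusted p = 0.118). NAT10 was at 178, 177 and 174 CPM in OF1 and at 191, 192 and 191 CPM in DMSO (log2 -0.11 ± 0.03 SE, adjusted p = 0.141). Neither passed, although the OF1 libraries of both were under all DMSO libraries. The median over the 38 genes was -0.07, with 28 below 0 and 10 above. Among all genes the median was 0.004, with 48.4% below 0. In 17 of the 38 the OF1 libraries were wholly under DMSO, against 11.8% of all genes, and in 0 wholly above, against 10.2%. The SRM call was lost without OF1 replicate 2, without any 1 DMSO replicate and with the muscle level as a covariate (log2 -0.21, adjusted p = 0.0551). With length and GC offsets LYAR fell as well (log2 -0.17, adjusted p = 0.00838). The count over all genes under the offsets lay within 60 to 357, the range over the alternatives that did not leave out 1 library.

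Under the combination, 5 of the 38 genes fell and none rose: SRM, NCL, MYC, POLR1A and MYBBP1A. That is 13.2% of the set, against 10.7% of all genes called in either direction, 5.65% higher and 5.07% lower, so the count in either direction is near the background. SRM was at 134, 143 and 146 CPM in the combination and at 175, 172 and 176 CPM in DMSO, without overlap. It averaged 141 ± 6.14 CPM in the combination and 174 ± 1.86 CPM in DMSO (SD, n = 3 each) and fell by 19.1% (log2 -0.31 ± 0.04 SE, adjusted p = 0.000187 by edgeR). This call held in all 18 alternatives, with log2 changes of -0.38 to -0.25.

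NCL was at 1239.5, 1249.7 and 1215 CPM in the combination and at 1354, 1338 and 1369.9 CPM in DMSO, and fell by 8.79% (log2 -0.13 ± 0.03 SE, adjusted p = 0.00446). MYC averaged 21.3 ± 0.51 CPM in the combination and 24.5 ± 0.225 CPM in DMSO (SD, n = 3 each), and fell by 13.0% (log2 -0.20 ± 0.06 SE, adjusted p = 0.031). POLR1A was at 89.6, 88.6 and 84.3 CPM in the combination and at 93.6, 98.7 and 99.2 CPM in DMSO, and fell by 9.98% (log2 -0.15 ± 0.04 SE, adjusted p = 0.0279). MYBBP1A (chr17:4538897-4555631, minus strand), a MYB-binding protein that takes part in ribosomal RNA synthesis, was at 206, 226 and 217 CPM in the combination and at 233, 244 and 235 CPM in DMSO, and fell by 8.69% (log2 -0.13 ± 0.04 SE, adjusted p = 0.0357). In all 4 genes the libraries of the groups did not overlap.

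Of the others, BOP1, a 60S assembly factor that works with PES1 and WDR12, and NAT10 came nearest to the threshold in the combination (adjusted p = 0.0514 and 0.0546). The median log2 change was -0.04, with 30 genes below 0 and 8 above. Among all genes the median was -0.002, with 50.5% below 0. In 14 genes the combination libraries were wholly under DMSO, against 13.8% of all genes. In 1 they were wholly above, also against 13.8%. Among alternatives with more than 1 combination library, the NCL call was lost only with the muscle covariate (adjusted p = 0.053). The MYC call was lost on leaving out any 1 of the 6 libraries. The POLR1A call was lost without combination or DMSO replicate 2 or 3, and the MYBBP1A call without combination replicate 1 or any DMSO replicate. With the muscle covariate MYC, POLR1A and MYBBP1A did not pass either, at log2 changes of -0.18, -0.10 and -0.14, and NCL was at -0.14. Because the muscle level partly follows this treatment, the 2 cannot be told apart in that fit. A further fit left out combination replicates 2 and 3, which stood apart, and assumed that replicate 1 varies like the other groups. With 1 library in the group, its calls are not given. Over the 18 alternatives, this fit among them, the log2 change of NCL was -0.15 to -0.12 and that of MYC -0.24 to -0.16. With length and GC offsets POLR1A (log2 -0.07) and MYBBP1A (log2 -0.03) no longer passed, while NOP58, UTP20 and LYAR did. The count over all genes under the offsets is not given for the combination against DMSO.

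**Figure D4:**
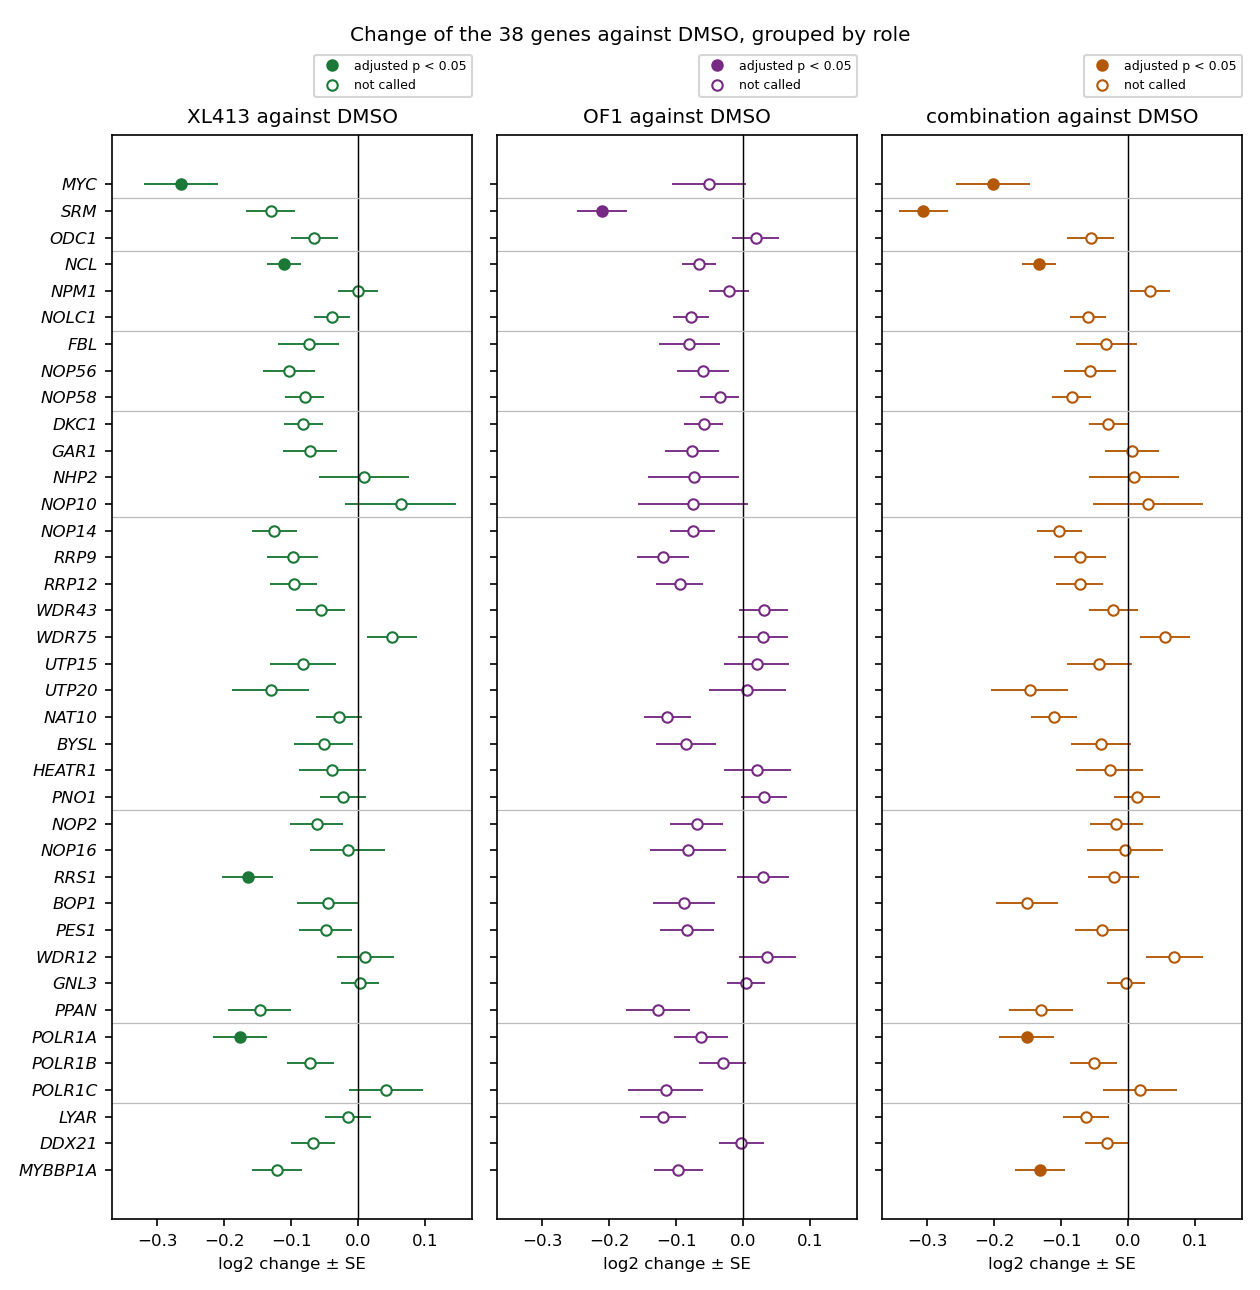
Log2 change against DMSO with its standard error for each of the 38 genes, grouped by role, under XL413, OF1 and the combination, with filled points for genes that passed. Filled points are all under 0: 4 under XL413, 1 under OF1 and 5 under the combination.

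With OF1 added to XL413, SRM was lower than with XL413 alone. It was at 134, 143 and 146 CPM in the combination and at 161, 160 and 157 CPM with XL413 alone, without overlap (log2 -0.18 ± 0.04 SE, adjusted p = 0.0182 by edgeR). SRM was the only gene of the 38 to pass, 2.63% of the set against 3.41% of all genes (1.06% higher and 2.35% lower). The count over all genes, 524, ran from 168 to 828 on leaving out 1 library. RRS1 was at 119, 132 and 126 CPM in the combination and at 111, 117 and 113 CPM with XL413 alone, and did not pass (log2 0.14 ± 0.04 SE, adjusted p = 0.0566). NAT10 had a log2 difference of -0.08 (adjusted p = 0.236). With length and GC offsets the SRM difference was -0.05 (adjusted p = 0.442), and RRS1 (0.19), PPAN (0.12) and RRP9 (0.11) were higher in the combination. The count over all genes under the offsets is not given for this comparison, and the 3.41% belongs to the fit without them. Without XL413 replicate 1, XL413 replicate 2 or combination replicate 2 the SRM difference did not pass, nor did it with the muscle covariate (log2 -0.18) or in a fit to the 2 groups alone.

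With XL413 added to OF1, 0 of the 38 genes passed the threshold, against 5.5% of all genes (2.79% higher and 2.71% lower); 6 of the 38 had an unadjusted p under 0.05 by edgeR, and DESeq2 and limma-voom also called 0. The count over all genes, 845, was 2227 without combination replicate 1, 212 to 384 without any other 1 library and 9 with the muscle covariate. After MYC, the smallest p-values were those of NCL (log2 -0.07 ± 0.03 SE, adjusted p = 0.129) and UTP20, a long scaffold protein of the small-subunit processome (log2 -0.15 ± 0.06 SE, adjusted p = 0.132). UTP20 was at 111, 101 and 90.0 CPM in the combination and at 117, 111 and 107 CPM in OF1, which overlapped. For MYC the log2 difference was -0.15 with a 95% interval of -0.27 to -0.03 before adjustment for the number of genes (adjusted p = 0.122), and for SRM -0.10 with an interval of -0.17 to -0.02 (adjusted p = 0.145).

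Set against each other, XL413 cells had less MYC and RRS1 than OF1 cells, and no other gene of the set passed. That is 5.26% of the 38, against 6.45% of all genes (3.1% higher and 3.35% lower). RRS1 was at 111, 117 and 113 CPM in XL413 and at 128, 130.3 and 133 CPM in OF1 (log2 -0.20 ± 0.04 SE, adjusted p = 0.00908 by edgeR), and this call held in all 17 alternatives. MYC was at 21.2, 21.4 and 18.7 CPM in XL413 and at 24.0, 22.5 and 24.5 CPM in OF1 (log2 -0.21 ± 0.06 SE, adjusted p = 0.0359). The libraries did not overlap in either gene. SRM differed by 0.08 on the log2 scale with an unadjusted 95% interval of 0.00 to 0.16 (adjusted p = 0.219). The MYC difference did not pass without any 1 of the XL413 replicates, OF1 replicate 1 or OF1 replicate 3, or in a fit to these groups alone. With length and GC offsets 4 genes were lower in XL413 than in OF1, MYC (log2 -0.26), RRS1 (-0.27), ODC1 (-0.10, adjusted p = 0.0479) and PPAN (-0.10, adjusted p = 0.0394), and the SRM difference was -0.011. The count over all genes under the offsets lay within 824 to 1290, the range over the alternatives that did not leave out 1 library.

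The combination was also compared with the sum of the single log2 changes. By edgeR 0 of the 38 genes departed from additivity at the threshold, against 0% of all genes, and DESeq2 and limma-voom also called 0 of the 38. The median departure over the 38 was 0.065, with 32 above 0 and 6 below. Among all genes the median was 0.008, with 47.5% below 0. At an unadjusted p under 0.05 the edgeR counts were 4 of the 38 and 1566 of 15353 genes, and DESeq2 called 109 of all genes at the threshold. For SRM the departure was 0.04 with a 95% interval of -0.08 to 0.15, and for MYC 0.11 with an interval of -0.05 to 0.28. The smallest p-values were those of the H/ACA snoRNP proteins GAR1 (0.15 ± 0.06 SE) and DKC1, the pseudouridine synthase (0.11 ± 0.04 SE), both with an adjusted p of 0.348. GAR1 was at 79.6, 86.4 and 84.6 CPM in XL413, 80.3, 85.3 and 84.2 CPM in OF1, 85.2, 87.5 and 91.6 CPM in the combination and 88.3, 87.3 and 87.6 CPM in DMSO. Both single treatments lay under DMSO for GAR1 and the combination overlapped it. With length and GC offsets 4 genes, DKC1, GAR1, RRP9 and PPAN, departed upward (log2 0.15 to 0.22, adjusted p = 0.0207 to 0.0385), and 435 of all genes departed in either direction.

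The expected counts of NPM1, NOP14, PPAN, MYBBP1A and HEATR1 were not whole in any of the 12 libraries, which happens where reads that match several entries are divided among them, so their values are uncertain to that degree. PPAN shares sequence with the read-through entry PPAN-P2RY11, which had a log2 change of -1.23 ± 0.37 SE under OF1 and did not pass (adjusted p = 0.137).

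Among 153 other tested genes of these pathways, 1 rose and 4 fell under XL413 (3.27%, against 2.8% of all genes), 2 rose and 3 fell under OF1 (3.27%, against 1.15%), and 7 rose and 12 fell under the combination (12.4%, against 10.7%). The shares under XL413 and the combination are near those of all genes. Under XL413 the genes that fell were the RNA polymerase I factor UBTF (log2 -0.15), the 60S factor NLE1 (-0.22), the mitochondrial serine enzyme SHMT2 (-0.15) and the transferrin receptor TFRC (-0.17), and POLR2K, a subunit shared by RNA polymerases, rose (0.20). Under OF1 the importin IPO4 (-0.18), the processome helicase DHX37 (-0.19) and TCOF1 (treacle, -0.15) fell, and SHMT2 (0.16) and TAF1D (0.16) rose. SHMT2 averaged 335 ± 4 CPM in XL413, 414 ± 5.87 in OF1, 421 ± 14.2 in the combination and 371 ± 8.19 in DMSO (SD, n = 3 each), and it is also a known target of the stress factor ATF4.

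Of 15 other tested genes of polyamine metabolism, 1 fell and 1 rose in the combination, 13.3% against 10.7% of all genes. EIF5A, the translation factor that carries hypusine made from spermidine, averaged 1470 ± 83.5 CPM in the combination and 1733 ± 66 CPM in DMSO and fell (log2 -0.24 ± 0.04 SE, adjusted p = 0.00413 by edgeR). SAT1, which acetylates spermidine and spermine for export, averaged 19.4 ± 0.945 CPM in the combination and 16.4 ± 1.32 CPM in DMSO and rose (log2 0.24 ± 0.06 SE, adjusted p = 0.0263). Of 11 partners in the MYC and MAX network, MNT, a MAX partner that represses transcription, fell in the combination (log2 -0.26 ± 0.07 SE, adjusted p = 0.0279) and 10 did not pass (9.09% called). All-gene shares in the combination were 10.7% called, 5.65% higher and 5.07% lower. Of 41 other processome and 40S genes 4 fell (9.76%), among them RRP1B (-0.18), DHX37 (-0.15) and NOC4L (-0.19), and of 39 other 60S genes RSL24D1 (0.16) and NSA2 (0.14) rose and MRTO4 (-0.15) fell (7.69%). Among 18 genes of RNA polymerase I transcription 3 rose, POLR2K (0.21) with the smallest p, and 2 fell, UBTF (-0.13) and CD3EAP (-0.24), 27.8% of the list. Of 29 other genes known as MYC targets, SHMT2 rose (0.18) and 3 fell, TFRC (-0.23) and IPO4 (-0.17) with the smallest p-values, 13.8% of the list.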

How the data were processed

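Libraries were made from oligo-dT-purified mRNA with a dUTP method that marks strand, per the labels' protocols. The authors deposited unscaled expected counts for each gene symbol, which are fractional where a read matches several entries. The submitters' processing notes name hg38, Bowtie2 2.1.0 and RSEM 1.2.15. Which annotation was used, and whether counting used strand, is not given in the sources used here. Fractional values, 10.6% of the table, were rounded before testing.

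The 12 libraries (3 per group, 4 groups) were fitted in edgeR 4.0.16 (R 4.3.3) with filterByExpr, TMM factors and 1 mean per group, which left 8 residual degrees of freedom. The quasi-likelihood F test was run for 7 comparisons, and p-values were adjusted by Benjamini-Hochberg over 15353 genes. The SE was taken as |log2 change|/√F, and 95% intervals use the same SE and are not adjusted for the number of genes. CPM are counts scaled by TMM library size. The common biological coefficient of variation was 0.0487, which with 3 libraries per group sets the precision. The steps were tested on simulated data. The 38 genes and all lists were chosen with earlier results of these data known, so their counts are descriptions and no test was run over a list. Genes named are MYC, ODC1 and SRM, the called genes of largest change in each comparison (up to 4 per direction, otherwise the 2 of smallest p) and up to 3 called genes of smallest p per pathway list. Where other genes are named, they were picked after their values were seen. Exon lengths, which join all annotated exons of a gene, and positions are from GENCODE 29 on GRCh38 and promoters from RefSeq. Alternatives were DESeq2 1.42.0, limma-voom (limma 3.58.1), other scaling factors and filters, the replicate number as a block, the compared groups alone, the muscle level as a covariate, each library left out, and, chosen after seeing the data, length and GC offsets.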

Additional observations from a re-analysis of the deposited data

Results flagged for a closer look

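DKC1, the pseudouridine synthase of box H/ACA snoRNPs, was set apart by the direction of its libraries under OF1 without and with XL413, a difference that did not pass its test. It was at 313, 331 and 324 CPM in OF1 and at 338, 333 and 337 CPM in DMSO, every OF1 library lower (log2 change -0.059). With XL413 present it was at 325, 331 and 331 CPM in the combination and at 315, 314 and 323 CPM with XL413 alone, every combination library higher (log2 difference 0.05). Neither change passed the threshold by edgeR (adjusted p = 0.388 and 0.398). The test of the difference itself, the departure from additivity, gave a log2 value of 0.11 with an adjusted p of 0.348, and 0.15 with an adjusted p of 0.0385 under the length and GC offsets.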

How the results depend on the processing

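With the replicate number as a block the counts of the 38 genes called were 3 for XL413, 1 for OF1 and 5 for the combination against DMSO, 1 and 0 for the combination against XL413 and OF1, 2 for XL413 against OF1 and 0 for non-additivity, and NCL under XL413 was the only call lost (adjusted p = 0.0514). Whether the numbers pair the samples cannot be settled from these values. Deviations of the 18 same-numbered pairs correlated at -0.16 to 0.20, and 3 of 12 libraries correlated best with their own number. Such deviations also carry differences between single libraries, such as those with exon length, which could hide a pairing. Counts that left the range of 1.5 times were as follows, and the cause was not tested. For XL413 against DMSO DESeq2 called 7, with 641 of all genes (4.18%), and a fit to those groups alone 11, with 1394 of all genes (9.3%). The muscle covariate gave 2 and the length and GC offsets 14, and 0 to 2 were called on leaving out 1 library. For OF1 against DMSO they were 0 with the muscle covariate, 2 with the offsets and 0 to 1 without 1 library. For the combination against DMSO they were 8 with DESeq2, 10 with total counts alone, 3 in those groups alone, 1 with the muscle covariate and 2 to 4 without 1 library. For the combination against XL413 they were 2 with DESeq2 and with upper-quartile factors, 0 in those groups alone and with the muscle covariate, 3 with the offsets and 0 to 2 without 1 library. Total counts alone gave 2 for the combination against OF1 (0 to 2 without 1 library), and the offsets 4 for XL413 against OF1 (1 to 2) and 4 for non-additivity (0 to 0). Counts over all genes ran from 86 to 1394 for XL413, 42 to 357 for OF1 and 318 to 2241 for the combination against DMSO, with 430, 176 and 1645 as reported. Of 506 recomputed single-gene values 421 kept direction and side of the threshold, 67 no longer passed, 6 newly passed and 12 changed sign, none of them called. Values from the fit with combination replicate 1 alone are among the 506. The log2 change of ODC1 under OF1 was -0.012 to 0.041 over fits without 1 library. In the combination against XL413 that of ODC1 was -0.0064 with total counts alone, -0.0056 with combination replicate 1 alone and -0.0048 to 0.029 without 1 library. Its departure from additivity was 0.047 with the muscle covariate, 0.029 with the offsets and -0.030 to 0.023 without 1 library. SRM was at -0.011 in XL413 against OF1 with the offsets, and its departure from additivity at -0.039 with combination replicate 1 alone.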
